A study of Homo sapiens with 8 samples.

Results

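Extracellular adenosine is made, sensed and removed by a small set of proteins, and 8 genes for them were followed through RNA sequencing of SK-Hep1 cells. The genes were chosen by name, with earlier results of these data known: the ectonucleotidase genes ENTPD1 and NT5E, the adenosine receptor genes ADORA1, ADORA2A and ADORA2B, and the genes ADA, ADK and PNP for enzymes that use up adenosine or inosine. All 8 were found among the 58302 genes of the deposited tables through their Ensembl identifiers. SK-Hep1 is a widely used line of human cells that came from a patient with a tumour of the liver. Cells made to express SLC29A2, an equilibrative nucleoside transporter gene, were set beside mock control cells. Each of these cell types received sorafenib with dipyridamole, dipyridamole alone, sorafenib alone or a control treatment, which gave 8 conditions with 1 library each and no replicates. Sorafenib blocks RAF and VEGF receptor kinases among others, and dipyridamole blocks nucleoside transporters and phosphodiesterases. The sources used here give no dose, no treatment time and no content of the control treatment, and do not say whether the SLC29A2 cells were a pool or 1 clone.

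ATP released from cells is cut to AMP by ectonucleoside triphosphate diphosphohydrolase (CD39, from ENTPD1), and AMP is cut to adenosine by ecto-5'-nucleotidase (CD73, from NT5E). Adenosine then acts on G protein-coupled receptors: that of ADORA1 lowers cyclic AMP, whereas those of ADORA2A and ADORA2B raise it. Equilibrative nucleoside transporters carry adenosine across the membrane, adenosine kinase (ADK) turns it back into AMP, adenosine deaminase (ADA) turns it into inosine, and purine nucleoside phosphorylase (PNP) splits inosine. In tumours this pathway is known for its part in immune suppression, and dipyridamole is known to block adenosine uptake.

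The libraries held 14.07 to 16.69 M reads, as worked out from the FPKM values. SLC29A2 itself stood at 1477 to 3040 FPKM in SLC29A2 cells and 7.11 to 7.81 FPKM in control cells, where FPKM counts fragments per kilobase of transcript length relative to the reads of a library. Of 10 hepatocyte marker genes, 1 reached a mean of 1 FPKM and 3, namely APOB, TTR and FGB, were at 0 in all libraries, and ALB averaged 0.0301 FPKM. Of 8 leukocyte markers 1 reached a mean of 1 FPKM, with LYZ, CD2 and CD3E at 0 in all libraries. Of 10 endothelial markers 3 did (ENG, ROBO4 and TIE1), EMCN was at 0, and PECAM1 and CDH5 averaged 0.0718 and 0.0705 FPKM. All 7 mesenchymal markers and 3 of 5 epithelial markers, the keratins KRT8, KRT18 and KRT19, reached that level. The 2 control-cell libraries with dipyridamole stood apart in composition: genes that are not protein coding took 2.65% of reads with both drugs and 2.46% with dipyridamole alone, against 1.58% to 1.91% in the other 6 libraries.

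The 8 genes covered a wide range of transcript levels. By mean FPKM over the 8 libraries the order was NT5E (53.5 ± 21.7), ADK (42.7 ± 6.81), PNP (28.3 ± 8.10), ADA (25.6 ± 3.92), ADORA2B (14.4 ± 2.98), ADORA1 (5.42 ± 3.07), ENTPD1 (2.89 ± 0.680) and ADORA2A (0.528 ± 0.187; SD over 8 libraries of different conditions). Neighbours in that order overlapped in range except ADA and ADORA2B, ADORA2B and ADORA1, and ENTPD1 and ADORA2A. The order of some pairs held in every library all the same: ADK was above PNP in 8 of 8, whereas NT5E was above ADK in 6 of 8 and PNP above ADA in 5 of 8. NT5E exceeded ENTPD1 in every library, by 7.47 to 30.1 times. ADORA2A rested on 4 to 14 reads per library, which is too few to show differences between conditions.

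**Figure D1:**
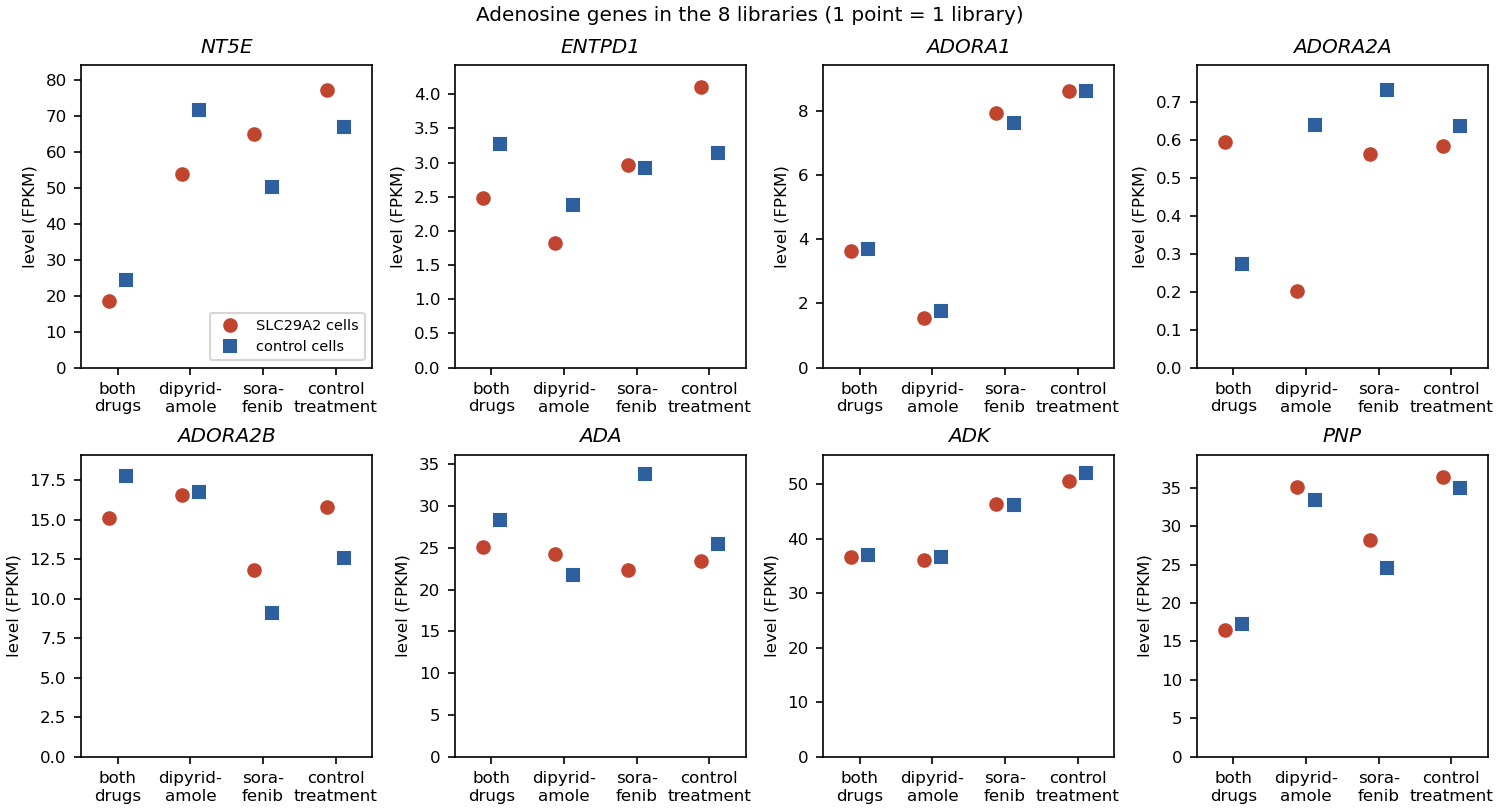
Level in FPKM (vertical axis, linear from 0) of each of the 8 genes in each of the 8 libraries, with SLC29A2 cells as circles, control cells as squares and the treatments along the horizontal axis. NT5E and PNP are lowest with both drugs, at 18.7 to 24.4 and 16.4 to 17.3 FPKM, and ADORA1 is lowest with dipyridamole alone, at 1.53 to 1.77 FPKM.

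Drug effects were tested across the factorial layout, each carried by 4 pairs of libraries that differ in that drug alone. The test was limma on log2(FPKM + 1), adjusted by the Benjamini-Hochberg method over the 13899 genes that averaged 1 FPKM or more, with a threshold of 0.05. Since nothing says that libraries came from separate cultures, the p-values measure only the spread between these 8 libraries. Of the 8 adenosine genes 7 were tested, and ADORA2A was below the minimum level. The set was chosen with earlier results of these data known, so its counts and medians are descriptive. With sorafenib 1 of the 7 fell, PNP, and none rose, while 8.11% of all genes tested were called and 2.17% were lower. With dipyridamole 3 of the 7 fell, NT5E, ADORA1 and ADK, and none rose, while 30.0% of all genes were called and 12.6% were lower. The median effect over the 7 genes was -0.06 for sorafenib and -0.34 for dipyridamole on the log2 scale, against 0.09 and 0.07 over all genes tested. Libraries with and without the drug did not overlap for 1 of the 7 genes with sorafenib (PNP, lower; 7.98% of all genes, 2.14% lower) and for 2 of the 7 with dipyridamole (ADORA1 and ADK, both lower; 24.8% of all genes, 11.7% lower). The share of calls depended on scaling. Sorafenib gave 825 higher and 302 lower genes as deposited and 478 higher and 470 lower after size factors; dipyridamole gave 2428 and 1745 as deposited and 2079 and 2205 after size factors. The 4 calls among the adenosine genes passed under both scalings. In bulk RNA, fewer cells expressing a gene and less RNA per cell cannot be told apart.

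**Figure D2:**
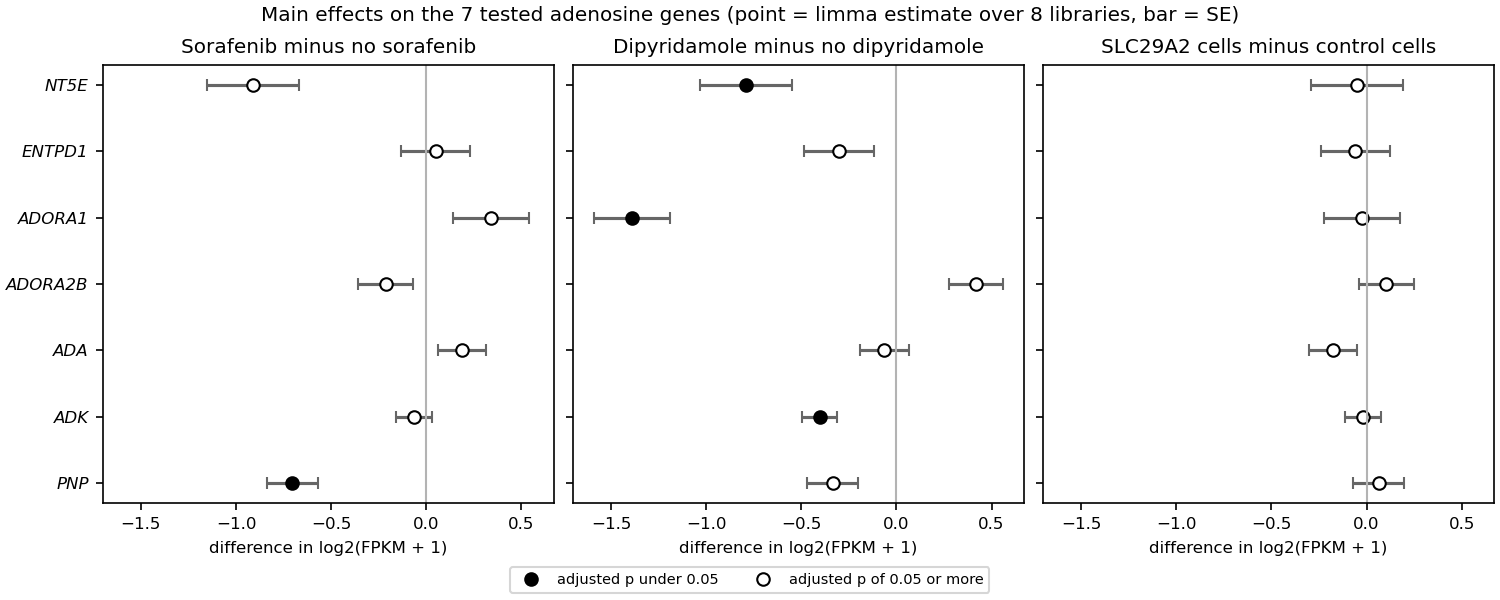
Difference in log2(FPKM + 1) (horizontal axis) for sorafenib, dipyridamole and SLC29A2 cells in the 7 tested genes, as limma estimates over 8 libraries with bars for the SE; filled points have an adjusted p under 0.05. The filled points are PNP for sorafenib (-0.70) and ADORA1 (-1.39), NT5E (-0.79) and ADK (-0.40) for dipyridamole, and none is filled for SLC29A2 cells.

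The producing enzymes were described first. NT5E, the gene for the AMP-cutting enzyme (ENSG00000135318; GRCh38 chromosome 6, 85449584 to 85495791, plus strand), was lowest where both drugs were given. In SLC29A2 cells it stood at 18.7 FPKM with both drugs, 53.8 with dipyridamole, 65.1 with sorafenib and 77.3 with the control treatment. Control cells had 24.4 FPKM with both drugs, 71.8 with dipyridamole, 50.2 with sorafenib and 67.0 with the control treatment. Both libraries given both drugs were thus below all 6 others, which spanned 50.2 to 77.3 FPKM. Averaged over the other factors, NT5E was 42.2 ± 25.0 FPKM with dipyridamole and 64.9 ± 11.2 without (SD, n = 4 libraries each), a difference of -0.79 ± 0.24 on the log2 scale (SE; limma adjusted p = 0.0357), and the groups overlapped. This call was lost in 5 of the 8 fits that left out 1 library (each library given both drugs, each given sorafenib alone, and the SLC29A2 library given dipyridamole), with a limma adjusted p of up to 0.106. Dipyridamole alone against the control treatment differed by -0.21 ± 0.21 in the fit with 4 separate treatments as terms (limma adjusted p = 0.553). Without both libraries given both drugs, an alternative added after seeing the data, it differed by -0.21 ± 0.20 (limma adjusted p = 0.516). Both fits estimate that same contrast, whereas the main effect averages over libraries with and without sorafenib. The call was also lost at a minimum mean of 0.1 FPKM (limma adjusted p = 0.0604) and without a minimum (0.135). Without both control-cell libraries given dipyridamole the difference was -1.13 ± 0.30 (limma adjusted p = 0.0475). In libraries with dipyridamole the summed level of the 5 epithelial markers was 733 to 1075 FPKM, against 2019 to 2781 FPKM without. KRT8 (536.5 to 853.3 against 1497 to 1903 FPKM) and KRT18 (134.5 to 203.8 against 491.1 to 810.3) carried that sum. KRT19 overlapped, at 60.5 to 81.3 against 30.4 to 69.8 FPKM, and CDH1 and EPCAM were near the floor. The summed level of the 7 mesenchymal markers was 1027 to 1116 against 1246 to 1718 FPKM. Of these only VIM and THY1 were lower without overlap, whereas FN1, COL1A1, PDGFRB, COL1A2 and S100A4 overlapped. The part of these markers in the dipyridamole results for NT5E, ADORA1 and ADK was not tested. For sorafenib NT5E was 39.6 ± 21.8 FPKM with the drug and 67.5 ± 10.0 without, a difference of -0.91 ± 0.24 that missed the threshold (limma adjusted p = 0.0514) and passed it after size factors (0.0446) and in limma-voom on recovered reads (0.0272). Sorafenib alone against the control treatment differed by -0.33 ± 0.20 without both libraries given both drugs (limma adjusted p = 0.470). With 4 separate treatments it differed by -0.33 ± 0.21 (limma adjusted p = 0.525). The sorafenib difference was -0.71 ± 0.25 without both control-cell libraries given dipyridamole (limma adjusted p = 0.159).

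ENTPD1, the gene for the enzyme before it (ENSG00000138185; chromosome 10, 95711779 to 95869695, plus strand), was low throughout, at 44 to 94 reads per library. It stood at 2.48 FPKM with both drugs, 1.82 with dipyridamole, 2.96 with sorafenib and 4.10 with the control treatment in SLC29A2 cells. In control cells it stood at 3.27 FPKM with both drugs, 2.39 with dipyridamole, 2.92 with sorafenib and 3.14 with the control treatment. The lowest value of each cell type was that with dipyridamole alone, but groups with and without dipyridamole overlapped and the difference did not pass (-0.30 ± 0.18; limma adjusted p = 0.240). ENTPD1-AS1, an antisense gene that shares 454 exon bases with ENTPD1, stood at 4.36 to 6.34 FPKM, and without stated strand information reads in those bases cannot be assigned to either gene.

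Promoter sequence was read for genes that were lowest with both drugs or that differed from each other under dipyridamole. RefSeq tables of GRCh38.p14 hold 12 promoters for 7 of the 8 genes, each from 250 bases before to 50 after a listed start. These starts are not the gene starts given in this text, and the ADORA1 promoter lies well inside the gene span given for it. Both strands were searched for the core TGACG of the cyclic AMP response element, the AP-1 motif TGACTCA, the HIF core ACGTG and the GC box GGGCGG. Capitals mark the matches; a GC box on the other strand reads CCGCCC. NT5E and PNP are shown because both were lowest with both drugs. ADORA1 and ADORA2B are shown because they differed from each other under dipyridamole, although ADORA2B did not pass (limma adjusted p = 0.054). ADK, which passed for dipyridamole (limma adjusted p = 0.012), is not shown.
NT5E, chr6:85449833-85450132, plus strand: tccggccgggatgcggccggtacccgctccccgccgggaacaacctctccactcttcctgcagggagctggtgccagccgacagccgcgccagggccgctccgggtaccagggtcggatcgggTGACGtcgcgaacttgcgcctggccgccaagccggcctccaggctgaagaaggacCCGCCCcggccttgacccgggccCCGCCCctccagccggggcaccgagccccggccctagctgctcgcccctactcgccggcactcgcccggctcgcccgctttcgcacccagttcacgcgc
PNP, chr14:20469156-20469455, plus strand: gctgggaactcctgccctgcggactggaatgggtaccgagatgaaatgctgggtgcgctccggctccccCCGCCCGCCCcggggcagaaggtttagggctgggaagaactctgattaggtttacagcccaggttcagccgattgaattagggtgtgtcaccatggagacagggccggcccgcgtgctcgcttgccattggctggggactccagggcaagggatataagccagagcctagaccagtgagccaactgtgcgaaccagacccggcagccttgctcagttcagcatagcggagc
ADORA1, chr1:203127476-203127775, plus strand: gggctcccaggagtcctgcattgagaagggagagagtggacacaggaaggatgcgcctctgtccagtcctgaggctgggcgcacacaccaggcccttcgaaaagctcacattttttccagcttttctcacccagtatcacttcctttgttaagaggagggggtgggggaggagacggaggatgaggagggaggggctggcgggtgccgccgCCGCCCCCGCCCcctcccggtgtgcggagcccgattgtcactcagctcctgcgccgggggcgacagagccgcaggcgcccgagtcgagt
ADORA2B, chr17:15944880-15945179, plus strand: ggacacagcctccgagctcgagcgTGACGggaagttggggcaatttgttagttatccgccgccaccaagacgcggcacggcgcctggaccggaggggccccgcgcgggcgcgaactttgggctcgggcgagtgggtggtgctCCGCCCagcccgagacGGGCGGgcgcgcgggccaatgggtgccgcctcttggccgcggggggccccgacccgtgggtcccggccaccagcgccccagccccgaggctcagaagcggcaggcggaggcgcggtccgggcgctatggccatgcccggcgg
The NT5E and ADORA2B promoters each hold 1 core TGACG, at -127 and -226 bases from the start, and the PNP and ADORA1 promoters hold none. Among promoters not shown, those of ADK hold 0 and 1 core TGACG, those of ENTPD1 0, 3, 0, 1 and 0, and that of ADA 0. Each of the 4 promoters holds 2 GC boxes, which overlap each other in PNP, and none holds the AP-1 motif or the HIF core. In all 34943 promoters of that length, TGACG occurs in 24.5%, GGGCGG in 44.9%, ACGTG in 21.4% and TGACTCA in 5.0%. GC content is 75.0% for NT5E, 61.7% for PNP, 65.0% for ADORA1 and 75.7% for ADORA2B, against a median of 58.7% over all promoters.

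Among the receptor genes, ADORA1 and ADORA2B were read well enough to compare. ADORA1, the gene for the receptor that lowers cyclic AMP (ENSG00000163485; chromosome 1, 203090654 to 203167405, plus strand), was low in every library with dipyridamole. It stood at 3.61 FPKM with both drugs, 1.53 with dipyridamole, 7.92 with sorafenib and 8.61 with the control treatment in SLC29A2 cells. Control cells had 3.69 FPKM with both drugs, 1.77 with dipyridamole, 7.60 with sorafenib and 8.60 with the control treatment. The 4 libraries with dipyridamole lay below the 4 without it, and the cell types were close to each other under every treatment. The means were 2.65 ± 1.16 FPKM with dipyridamole and 8.18 ± 0.503 without (SD, n = 4 each), a difference of -1.39 ± 0.20 on the log2 scale (limma adjusted p = 0.0014), lower in 4 of 4 library pairs. The call held in all 8 fits without 1 library (highest limma adjusted p = 0.00772) and without both control-cell libraries given dipyridamole (-1.44 ± 0.28; 0.0223).

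ADORA2B, the gene for the low-affinity receptor that raises cyclic AMP (ENSG00000170425; chromosome 17, 15944917 to 15975746, plus strand), was higher with dipyridamole in every pair of libraries without passing the test. It stood at 15.1 FPKM with both drugs, 16.6 with dipyridamole, 11.8 with sorafenib and 15.8 with the control treatment in SLC29A2 cells. In control cells it stood at 17.8 FPKM with both drugs, 16.7 with dipyridamole, 9.12 with sorafenib and 12.6 with the control treatment. The lowest library of each cell type was the one given sorafenib alone. Dipyridamole libraries averaged 16.6 ± 1.09 FPKM and the others 12.3 ± 2.77 (SD, n = 4 each), higher in 4 of 4 library pairs by 0.06 to 0.89 on the log2 scale, with overlapping groups. The difference of 0.42 ± 0.14 missed the threshold (limma adjusted p = 0.054) and passed it after size factors (0.0498) and in limma-voom (0.0453). It was 0.20 ± 0.14 without both control-cell libraries given dipyridamole (limma adjusted p = 0.341). Dipyridamole alone against the control treatment differed by 0.22 ± 0.18 with 4 separate treatments (limma adjusted p = 0.434). Without both libraries given both drugs it differed by 0.22 ± 0.15 (limma adjusted p = 0.346).

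The balance of the receptor transcripts is given per library as a description, without a test. ADORA2B exceeded ADORA1 by 4.19 and 4.83 times with both drugs and by 10.8 and 9.48 times with dipyridamole in SLC29A2 and control cells, against 1.49 and 1.20 times with sorafenib and 1.84 and 1.46 times with the control treatment. ADORA1 made up 8.38% to 18.7% of the summed receptor FPKM with dipyridamole and 34.4% to 43.6% without it, and these ranges did not overlap. The summed level of the 3 receptor genes itself was 18.3 to 21.8 FPKM with dipyridamole and 17.5 to 25.0 FPKM without. ADORA2A, the gene for the high-affinity receptor that raises cyclic AMP (ENSG00000128271; chromosome 22, 24417879 to 24442360, plus strand), stood at 0.202 to 0.638 FPKM with dipyridamole and 0.563 to 0.732 FPKM without. With the minimum lowered to a mean of 0.1 FPKM it did not pass for dipyridamole (-0.20 ± 0.15; limma adjusted p = 0.391). SPECC1L-ADORA2A, a read-through gene on the same strand, shares 56.8% of the ADORA2A exon bases and was listed at 0. How reads in the shared bases were counted is not stated, so the level of ADORA2A may be understated. ADORA3, the gene for the A3 receptor, was at 0 in all 8 libraries.

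**Figure D3:**
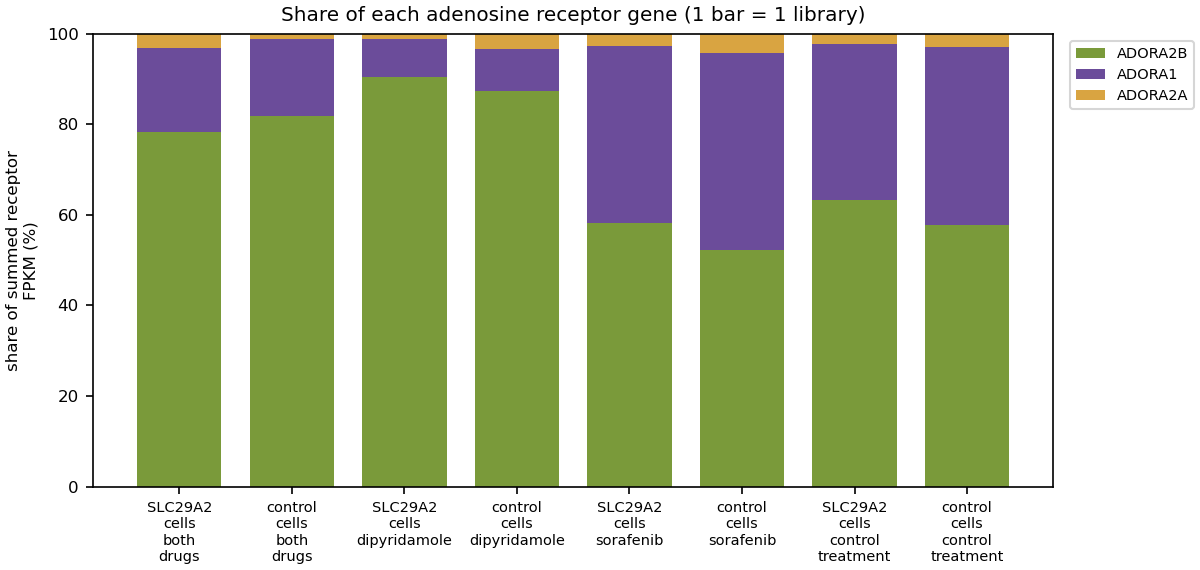
Share of each receptor gene in the summed FPKM of ADORA1, ADORA2A and ADORA2B (vertical axis, percent) in each library, 1 bar per library. ADORA1 takes 8.38% to 18.7% in the 4 libraries with dipyridamole and 34.4% to 43.6% in the 4 without it.

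The enzymes that remove adenosine and inosine were described last. ADK, the gene for the kinase that returns adenosine to AMP (ENSG00000156110; chromosome 10, 74151185 to 74709303, plus strand), was lower in every library with dipyridamole. In SLC29A2 cells it stood at 36.6 FPKM with both drugs, 36.0 with dipyridamole, 46.3 with sorafenib and 50.6 with the control treatment. Control cells had 37.0 FPKM with both drugs, 36.6 with dipyridamole, 46.2 with sorafenib and 52.0 with the control treatment. The 4 dipyridamole libraries lay between 36.0 and 37.0 FPKM, below the other 4. The means were 36.6 ± 0.423 FPKM with dipyridamole and 48.8 ± 2.97 without (SD, n = 4 each), a difference of -0.40 ± 0.09 (limma adjusted p = 0.012). The call held in all 8 fits without 1 library (highest limma adjusted p = 0.048), and without both control-cell libraries given dipyridamole the difference was -0.40 ± 0.11 (0.0502).

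PNP, the gene for the enzyme that splits inosine and guanosine (ENSG00000198805; chromosome 14, 20468954 to 20477094, plus strand), was lower in every library with sorafenib. It stood at 16.4 FPKM with both drugs, 28.2 with sorafenib, 35.1 with dipyridamole and 36.5 with the control treatment in SLC29A2 cells. In control cells it stood at 17.3 FPKM with both drugs, 24.5 with sorafenib, 33.4 with dipyridamole and 35.0 with the control treatment. Libraries with sorafenib lay below those without, and those with both drugs were the lowest of all. The means were 21.6 ± 5.69 FPKM with sorafenib and 35.0 ± 1.25 without (SD, n = 4 each), a difference of -0.70 ± 0.13 (limma adjusted p = 0.0202), lower in 4 of 4 pairs. The call was lost without the control-cell library given dipyridamole, the control-cell library given both drugs or the SLC29A2 library given dipyridamole (limma adjusted p up to 0.0808). It was also lost without both control-cell libraries given dipyridamole (-0.64 ± 0.15, limma adjusted p = 0.0925) and without a minimum level (-0.70 ± 0.13, 0.085). Sorafenib alone against the control treatment did not pass. It differed by -0.43 ± 0.11 without both libraries given both drugs, the alternative added after seeing the data (limma adjusted p = 0.169). With 4 separate treatments it differed by -0.43 ± 0.12 (limma adjusted p = 0.187). In libraries with sorafenib the summed level of the 10 hepatocyte markers was 4.14 to 5.91 FPKM, against 2.01 to 2.69 FPKM without, and that of the 8 leukocyte markers 2.33 to 3.44 against 0.457 to 1.78 FPKM; SERPINA1 alone averaged 3.19 FPKM, APOB, TTR, FGB, LYZ, CD2 and CD3E were at 0 throughout, and the part of these markers in the PNP result was not tested. For dipyridamole the PNP difference of -0.34 ± 0.13 did not pass (limma adjusted p = 0.0883).

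ADA, the gene for the deaminase (ENSG00000196839; chromosome 20, 44619522 to 44652233, minus strand), varied least in FPKM after ADK when the highest library is set against the lowest, by 1.55 times. It stood at 25.1 FPKM with both drugs, 24.2 with dipyridamole, 22.4 with sorafenib and 23.4 with the control treatment in SLC29A2 cells. The control cells had 28.4 FPKM with both drugs, 21.8 with dipyridamole, 33.8 with sorafenib and 25.4 with the control treatment. The control-cell library given sorafenib was the highest of the 8. Its differences were 0.19 ± 0.13 for sorafenib and -0.06 ± 0.13 for dipyridamole, neither past the threshold (limma adjusted p = 0.376 and 0.736). Within pairs, ADA was higher with dipyridamole in both SLC29A2 pairs and lower in both control-cell pairs, and the interaction of cell type and dipyridamole did not pass (0.34 ± 0.21; limma adjusted p = 0.410).

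Whether ectopic SLC29A2 changed these genes was asked across the 4 treatments. None of the 7 tested genes passed, none had an unadjusted p under 0.05, and limma-voom on recovered reads gave the same count of 0. Of all genes tested 1 was called, SLC29A2 itself (0.00719%), with 546 genes at an unadjusted p under 0.05. The differences between SLC29A2 and control cells ran from -0.18 ± 0.13 for ADA to 0.10 ± 0.14 for ADORA2B on the log2 scale. For ADK they were within -0.04 and 0.00 in all 4 pairs, whereas NT5E pairs ranged from -0.41 to 0.37. Neither did any of the 7 genes pass for the interaction of cell type with dipyridamole (2756 genes at an unadjusted p under 0.05, 0% called by limma and 0 genes by limma-voom) or with sorafenib (100 genes, 0% called and 0 genes by limma-voom). The interaction of cell type and dipyridamole cannot be fitted without the control-cell libraries given dipyridamole.

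Whether the effect of 1 drug depended on the other was asked next, and NT5E, ADORA1 and PNP had the largest interactions of the 7 genes. With dipyridamole present, sorafenib changed NT5E by -1.48 in SLC29A2 cells and -1.52 in control cells on the log2 scale, and without it by -0.25 and -0.41. ADORA1 was 0.86 and 0.76 higher with sorafenib where dipyridamole was present, and differed by -0.11 and -0.16 where it was absent. PNP differed by -1.05 and -0.91 with dipyridamole present and by -0.36 and -0.49 without it. The interaction of the drugs was -1.17 ± 0.30 for NT5E, 0.94 ± 0.23 for ADORA1 and -0.55 ± 0.18 for PNP, each with an unadjusted p under 0.05 but none past the threshold (limma adjusted p = 0.237, 0.220 and 0.281). Of all genes tested 12 were called (0.0863%), and 1839 had an unadjusted p under 0.05; limma-voom called 21 genes and none of the adenosine genes. Without both control-cell libraries given dipyridamole the interaction was -1.15 for NT5E, 1.00 for ADORA1 and -0.62 for PNP. Each treatment with dipyridamole then rested on 1 SLC29A2 library, with 1 degree of freedom left for the spread, so only these sizes are given. After size factors the median of all genes for this interaction was 0.00 in place of 0.11.

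**Figure D4:**
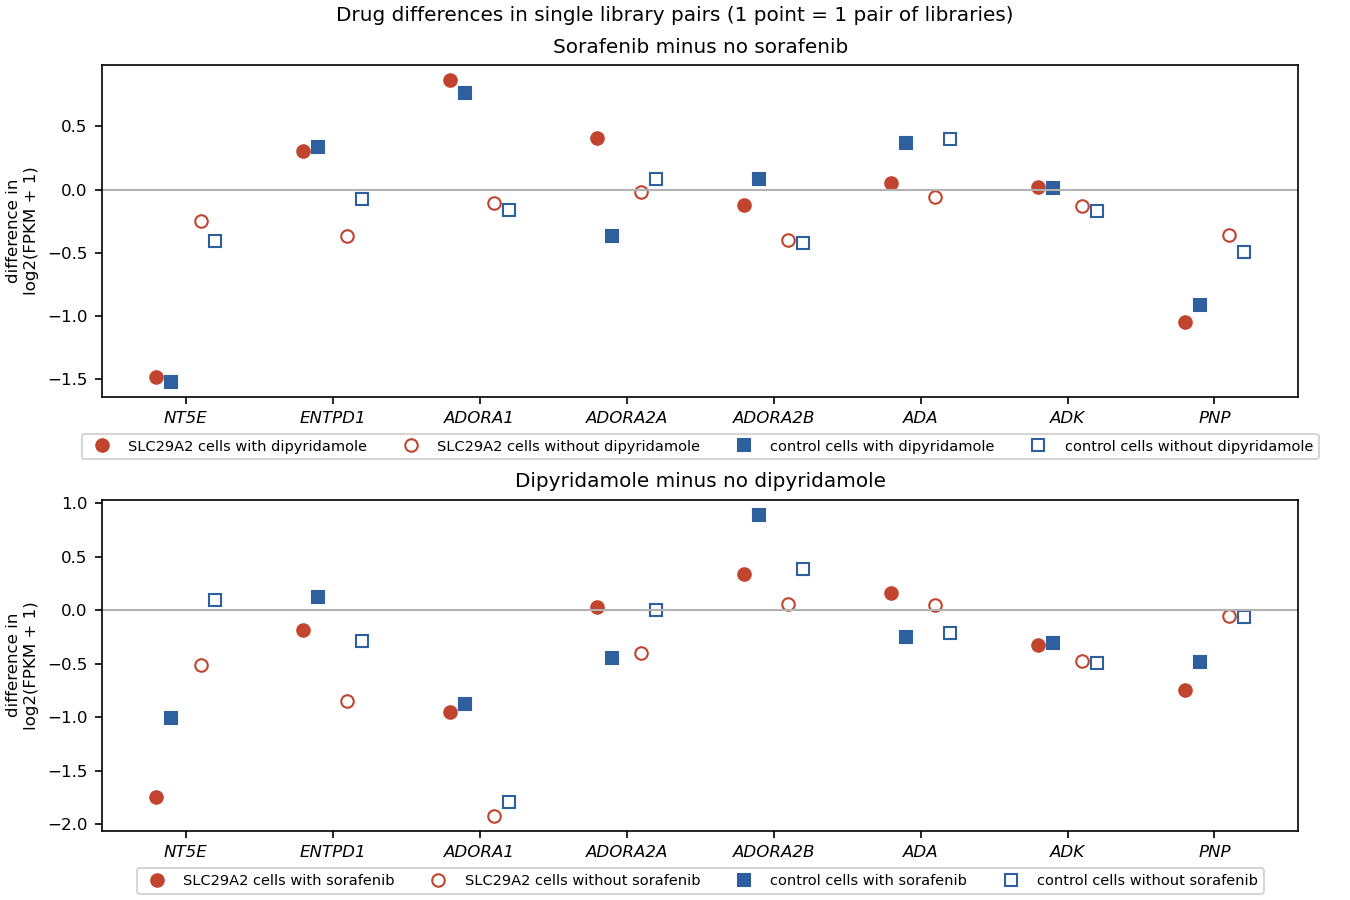
Difference in log2(FPKM + 1) (vertical axis) between single libraries with and without sorafenib (upper panel) and with and without dipyridamole (lower panel), 1 point per pair; filled points have the other drug present. Sorafenib differences for NT5E are near -1.5 with dipyridamole present and -0.41 to -0.25 without it, and those for ADORA1 change sign.

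Libraries given both drugs were also compared with those of each other treatment, over the 2 cell types, in comparisons chosen after seeing the data. These comparisons share the libraries given both drugs and use 1 estimate of spread. Against the control treatment 4 of the 7 genes fell and none rose, while 38.7% of all genes were called and 13.5% were lower: NT5E (-1.71 ± 0.21), ADORA1 (-1.05 ± 0.16), PNP (-1.04 ± 0.12) and ADK (-0.47 ± 0.11; limma adjusted p = 0.00147, 0.00308, 0.00125 and 0.0157). The ADK call was lost without any 1 of the 4 libraries compared (limma adjusted p up to 0.118), and the other 3 held in all 8 fits without 1 library. The share of reads from mitochondrial transcripts in the libraries given both drugs was 2.27% for SLC29A2 cells and 1.90% for control cells, and it was 3.06% to 5.79% under the other treatments; its part in these results was not tested. The all-gene median of this comparison was 0.16 as deposited and 0.01 after size factors.

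Against sorafenib alone NT5E (-1.38 ± 0.21), ADORA1 (-0.91 ± 0.16) and PNP (-0.61 ± 0.12) fell and ADORA2B rose (0.61 ± 0.18), while 22.3% of all genes were called, 1951 genes higher and 1143 genes (8.22%) lower (limma adjusted p = 0.0068, 0.0101, 0.016 and 0.0462). Without 1 library NT5E held in all 8 fits. ADORA1 was lost without either library given sorafenib alone (up to 0.0937 in limma), PNP without either of these or the SLC29A2 library given both drugs (0.152), and ADORA2B in every fit except that without the SLC29A2 library given both drugs (0.271). Without both control-cell libraries given dipyridamole, which leaves 1 library given both drugs, the ADORA2B difference was 0.34. With all libraries and a minimum mean of 0.1 FPKM it did not pass (limma adjusted p = 0.0701). Against dipyridamole alone NT5E (-1.50 ± 0.21) and PNP (-0.98 ± 0.12) fell and ADORA1 rose (0.81 ± 0.16), while 11.1% of all genes were called, 2.88% lower and 8.22% higher (limma adjusted p = 0.0116, 0.00902 and 0.0264). NT5E and PNP were lost without either library given dipyridamole alone or the SLC29A2 library given both drugs (limma adjusted p up to 0.0967 and 0.0782). ADORA1 was lost in every fit except those without a control-treatment library (up to 0.121). The all-gene medians were 0.12 and 0.15 as deposited and 0.01 and 0.00 after size factors.

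Other genes of the pathway were taken from 8 lists, with 79 genes beyond the 8 followed here, of which 38 were tested. With sorafenib 2 rose (5.94% of all genes did), 1 fell and 35 did not pass, with a median of 0.09 against 0.09 over all genes. With dipyridamole 4 rose (17.5% of all genes did), 3 fell and 31 did not pass, with a median of 0.06 against 0.07 over all genes. Between the cell types SLC29A2 was the 1 that passed. With both drugs 8 rose and 5 fell against the control treatment (38.7% of all genes were called), 5 rose and 3 fell against sorafenib (22.3%), and 1 rose and 2 fell against dipyridamole (11.1%). For single genes of the lists the effects of sorafenib and of dipyridamole are given, and genes that passed for neither may have passed in the comparisons of both drugs.

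SLC29A1, the gene for the main equilibrative nucleoside transporter, fell with each drug. It averaged 58.6 ± 24.3 FPKM with sorafenib and 94.6 ± 28.5 without, a difference of -0.72 ± 0.13 (limma adjusted p = 0.0179), which was lost without any 1 of the 3 control-cell libraries given a drug (up to 0.0671). With dipyridamole it averaged 55.7 ± 18.5 FPKM and without it 97.5 ± 27.6 (SD, n = 4 each), a difference of -0.81 ± 0.13 (limma adjusted p = 0.0024) that held in all 8 fits without 1 library. SLC29A4, for the plasma membrane monoamine transporter that also carries adenosine, differed by 0.56 ± 0.19 with dipyridamole and missed the threshold (limma adjusted p = 0.0504), and SLC29A3, of a lysosomal transporter, by -0.01 ± 0.16. SLC28A3, of a concentrative transporter, was below the minimum level, at 0.217 to 1.48 FPKM.

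In the list of deamination, phosphorylation and salvage, HPRT1, which salvages hypoxanthine, fell with dipyridamole, at 30.5 ± 2.58 FPKM with the drug and 56.5 ± 6.16 without (-0.87 ± 0.11; limma adjusted p = 0.000827). APRT, which salvages adenine, averaged 42.6 FPKM over the 8 libraries, XDH, which oxidises hypoxanthine, 19.6 FPKM and ADAL, a deaminase-like gene, 7.44 FPKM, and none of these passed for sorafenib or dipyridamole. MTAP, which splits methylthioadenosine and is named after its values were seen, stood at 0 to 0.137 FPKM. The list for adenosine formation inside the cell also holds AMP deaminases, which use AMP without making adenosine. One of these, AMPD3, rose with dipyridamole. It averaged 28.8 ± 9.51 FPKM with the drug and 15.0 ± 3.06 without, a difference of 0.87 ± 0.14 (limma adjusted p = 0.00212). AHCY, NT5C3B and AMPD2 averaged 182, 104 and 74.3 FPKM and did not pass.

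Among genes of nucleotide release and sensing, PANX2, a pannexin, rose with dipyridamole, at 13.5 ± 1.31 FPKM with the drug and 6.07 ± 0.727 without (1.04 ± 0.13; limma adjusted p = 0.000811). VDAC1 (167 FPKM on average), LRRC8A and PANX1 did not pass for sorafenib or dipyridamole. P2RX4, an ATP-gated channel, rose with dipyridamole (30.1 ± 6.85 FPKM with and 13.6 ± 3.46 without; 1.09 ± 0.12, limma adjusted p = 0.000368). With sorafenib P2RX4 rose by 0.54 ± 0.12 and P2RX6 by 0.72 ± 0.18 (limma adjusted p = 0.0303 and 0.0417). Both missed the threshold after size factors (limma adjusted p = 0.0522 each). P2RX4 held in 1 and P2RX6 in 0 of the 8 fits without 1 library. P2RX6 averaged 2.23 FPKM with sorafenib and 0.926 without, so it reached the minimum mean of 1 FPKM through the libraries with the drug. P2RY11, P2RX5 and P2RY1 averaged 6.06, 2.21 and 0.952 FPKM, and the first 2 did not pass while P2RY1 was below the minimum level. ALPL, ENPP1 and ENPP2, ectoenzymes that can also break down nucleotides, averaged 8.53, 1.69 and 1.57 FPKM and did not pass.

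Of the 9 tested genes for G proteins and adenylyl cyclases, ADCY7 rose with dipyridamole and ADCY3 fell. ADCY7 was low, at 3.05 ± 1.13 FPKM with the drug and 0.569 ± 0.264 without (1.34 ± 0.16, limma adjusted p = 0.000607). Its libraries without dipyridamole stood at 0.300 to 0.886 FPKM, so it reached the minimum mean of 1 FPKM only through those with the drug. The ADCY7 call is therefore given as a description. ADCY3 averaged 33.1 ± 6.19 FPKM with dipyridamole and 46.2 ± 4.79 without (-0.48 ± 0.10; limma adjusted p = 0.00633). GNAS, for the stimulatory G protein, averaged 643 FPKM, GNAI2, for an inhibitory one, 232 FPKM and ADCY9 38.6 FPKM, and none of these passed. The calls for HPRT1, AMPD3, PANX2, P2RX4 and ADCY3 with dipyridamole held in all 8 fits without 1 library. That for ADCY7 did too, with the same limit from the minimum level.

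For the 4 adenosine genes past the threshold, the 3 genes with the most similar pattern were found by Pearson's r of log2(FPKM + 1) over the 8 libraries. These were MOK (0.991), DLG4 (0.986) and ELOVL6 (0.985) for NT5E, and CKAP2 (0.996), HMMR (0.992) and ANO2 (0.992) for ADORA1. For ADK they were NUP62 (0.996), MCMBP (0.996) and ESCO2 (0.994), and for PNP CD59 (0.991), SGK1 (0.984) and SMTN (0.984). These libraries share treatments, so high values were common: 155 genes for PNP, 233 for NT5E, 432 for ADORA1 and 737 for ADK reached an r of 0.9 among 13873 genes compared. ELOVL6, a fatty acid elongase, stood at 9.19 and 10.4 FPKM with both drugs in SLC29A2 and control cells, against 29.5 and 28.4 FPKM with the control treatment. HMMR, a gene of the mitotic spindle, stood at 3.86 and 3.90 FPKM with dipyridamole, against 17.2 and 17.5 FPKM with the control treatment.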

How the data were processed

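Messenger RNA, selected by its poly(A) tail per the labels' protocols, was sequenced in 8 SK-Hep1 libraries, 1 per condition. The authors deposited FPKM values, as a table for each library. Per the submitters' processing notes, TopHat2 2.0, HTSeq 0.6.1 and edgeR were used with the build GRCh38.p12; the role of each tool is not given. Whether counting used strand is not stated, so overlapping genes on opposite strands may share reads. Of 58310 lines per table, 8 named no gene and were left out. A list of gene names, with GENCODE release 29 where that list had none, gave symbols for 58039 of the 58302 genes.

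FPKM was multiplied by mean transcript length and divided by 1 step per library, which was fitted so that most results were whole numbers. These were whole within 0.01 for 93.76% of values below 100 reads and were taken as reads. Reads were recovered for 95.34% of expressed genes. Totals of 14.07 to 16.69 M reads follow from the fitted steps and were not counted directly. By these steps 1 read in a gene of 2 kb was worth 0.03 to 0.0355 FPKM. FPKM does not correct for composition, so a few strong genes can shift the others.

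The limma package (3.58.1, R 4.3.3) was applied to log2(FPKM + 1), which understates changes of low genes. Tests were two-sided with a variance trend, and p-values were adjusted by Benjamini-Hochberg over the 13899 genes averaging 1 FPKM or more. Cell type and the 2 drugs entered as additive terms; each interaction was added singly. Comparisons of both drugs used cell type and 4 separate treatments and were chosen after seeing the data. With no replicates, the error term holds both spread between libraries and any interaction left out. Group means and SD pool libraries that differ in the other factors. The scripts were tested on simulated data. Alternatives were the pseudocount, the minimum level, size factors, limma-voom on recovered reads, other model terms and leaving out libraries.

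The members and lists were chosen with earlier results of these data known. Named were the 8 genes, list genes past the threshold (up to 6 per list and contrast), up to 3 others per list with the highest mean FPKM, and the 3 genes most like each gene called.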

Additional observations from a re-analysis of the deposited data

How the results depend on the processing

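Of the reported differences of the adenosine genes, under alternatives that do not leave out a single library, 269 of 311 kept their direction and their side of the threshold, 14 lost the call, 13 gained one and 15 changed sign, none of them a called result. The sign changes were, for sorafenib, ENTPD1 (-0.22 with 4 separate treatments, -0.0303 with size factors, -0.0458 without both control-cell libraries given dipyridamole, -0.22 without both libraries given both drugs) and ADORA1 (-0.132 with 4 separate treatments and -0.132 without both libraries given both drugs). For dipyridamole it was ADA (0.104 without both control-cell libraries given dipyridamole). Between cell types they were, with size factors, NT5E (0.0199), ADORA1 (0.03) and ADK (0.0537), without both control-cell libraries given dipyridamole NT5E (0.286), ENTPD1 (0.159) and ADORA1 (0.0274), and without both libraries given both drugs NT5E (0.0543) and ENTPD1 (0.0186). Without 1 library ENTPD1 ranged from -0.0766 to 0.208 for sorafenib and ADA from -0.167 to 0.0311 for dipyridamole. Between cell types the ranges without 1 library were -0.304 to 0.183 for NT5E, -0.218 to 0.0663 for ENTPD1, -0.161 to 0.12 for ADORA1, -0.00345 to 0.234 for ADORA2B, -0.0451 to 0.00648 for ADK and -0.0388 to 0.165 for PNP. The count of adenosine genes called for sorafenib, 1, was 0 with 4 separate treatments, without the minimum level and without either pair of libraries, 2 with size factors and in limma-voom, 3 with all pairwise interactions, and 0 to 2 without 1 library. For dipyridamole, 3, it was 5 with all pairwise interactions, 4 with size factors and in limma-voom, 2 with 4 separate treatments, with either lower minimum level and without either pair of libraries, and 2 to 4 without 1 library. It was 0 for cell type by dipyridamole and 1 with all pairwise interactions (NT5E), and 0 for sorafenib by dipyridamole and 2 with all pairwise interactions. Without 1 library the count was 3 to 4 for both drugs against the control treatment, 1 to 3 against sorafenib and 0 to 3 against dipyridamole, where it was 1 without the minimum level; it stayed at 0 between cell types and for each interaction. With 4 separate treatments, and without both libraries given both drugs, a drug effect is that of the drug alone against the control treatment. Here and in the counts below, these fits thus estimate the same contrast, which is not the main effect. The causes of the other changes were not tested. A fit with all pairwise interactions leaves 1 degree of freedom for the spread, so its calls and counts are weakly based. Fits of an interaction or of both drugs without both control-cell libraries given dipyridamole do so too. Their counts of genes called are left out here. Spearman's rho kept 1 of the 12 most similar genes, and a pseudocount of 0.1 kept 10. Over all genes, the 1127 calls for sorafenib were 136 without the minimum level, 605 at a mean of at least 0.1 FPKM, 89 with 4 separate treatments, 4839 with all pairwise interactions, 310 without both control-cell libraries given dipyridamole, 1 without both libraries given both drugs and 267 to 913 without 1 library. The 4173 for dipyridamole were 2134 with 4 separate treatments, 7411 with all pairwise interactions, 2622 without the minimum level and 2168 without both libraries given both drugs. The 12 for sorafenib by dipyridamole were 855 with all pairwise interactions, 25 with size factors, 21 in limma-voom, 0 with another minimum level or pseudocount and 0 to 2 without 1 library. For the interaction of cell type with dipyridamole the count of 0 was 1799 with all pairwise interactions. Both drugs gave 5385 calls against the control treatment, 3094 against sorafenib and 1542 against dipyridamole. Without 1 library these counts were 2968 to 5149, 785 to 2806 and 14 to 1114, and without the minimum level 1641 against sorafenib and 371 against dipyridamole. No paired analysis by replicate was possible because each condition has 1 library and the labels carry no replicate numbers; libraries that differ in 1 drug are matched through the terms for cell type and the other drug. ADORA2A, at 4 to 14 reads, and ENTPD1, at 44 to 94, are limited by few counted reads. For ADORA2A, reads in bases shared with SPECC1L-ADORA2A may not have been counted.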
